A study of Arabidopsis thaliana with 8 samples.

Results

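SAG101 and SAG29 are 2 Arabidopsis genes named for their rise in ageing leaves. They were taken as the probe sets 246600_at and 245982_at, which the platform annotation pairs with SAG101 (locus AT5G14930) and SAG29 (AT5G13170), both on chromosome 5. They are 2 of the 22746 probe sets besides controls on the ATH1 array. Both were among the 15922 bright enough, by their mean over the 8 arrays, to be tested. The study hybridised rosette RNA of 8 plant samples. Of these, 2 were the reference accession Col-0 (titled Col-0-L and Col-0-S, with L and S unexplained in the labels) and 6 were WRKY T-DNA knockout lines (KO-02, KO-07, KO-30, KO-40, KO-54 and KO-56), each on 1 array. All plants were 35 days old and just bolting, the stem and flowers were removed, and all grew in soil with slow-release fertiliser and the insecticide imidacloprid at 22 °C by day and 19 °C by night. Neither the gene hit in each line nor the zygosity of the insertion is given in the labels.

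SAG101 encodes a lipase-like protein that pairs with EDS1, and this pair acts with helper receptors in immunity set off by one class of intracellular immune receptors. It was first described as an acyl hydrolase of senescing leaves. SAG29, also called SWEET15, belongs to the SWEET family of membrane proteins that let sugars leave cells, and it carries sucrose. Its transcript is known to rise in senescing leaves, in developing seeds and under salt or osmotic stress. WRKY proteins are plant regulators that bind DNA, and several are known to promote or delay leaf senescence, the subject of the series.

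Values are signals on a linear scale, which the authors computed per probe set and scaled to a common level on each array. Array medians lay between 36.0 and 39.1, and the correlation between 2 arrays across probe sets ran from 0.967 to 0.988. The leaf genes LHCB4.1 (light harvesting) and RCA (Rubisco activase) were among the brightest, with RCA above 99.8% of probe sets on its dimmest array. None of the 8 flower markers chosen was paired with a probe set in the annotation used here. For the actin control, the signal of the 3' end over that of the 5' end, a measure that grows with RNA degradation, reached 29.5 in KO-54 and 15.4 in KO-30. The other 6 arrays had 8.41 to 12.0. For GAPDH it reached 2.46 and 1.62 in these lines, and the rest had 1.21 to 1.44. Nothing in the labels states that samples of 1 group were grown apart, and p-values therefore cover only the variation among these samples, part of which may be technical. Each line had 1 array, so the spread of the 6 lines also holds differences between lines and is not replicate noise of 1 genotype.

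SAG101 was brighter in 5 of the 6 lines than on both Col-0 arrays. Col-0-L had a signal of 52.5 and Col-0-S one of 63.5. Among the lines it was 120 in KO-54, 107 in KO-40, 90.5 in KO-30, 81.2 in KO-02, 72.8 in KO-07 and 55.2 in KO-56. KO-56 lay between the Col-0 arrays, so the groups overlapped through that line alone. Of all probe sets tested, 11.5% had at least 5 lines above both Col-0 arrays.

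SAG101 averaged 58.0 ± 7.76 (SD, n = 2) on the Col-0 arrays. The mean of the lines was 87.9 ± 23.6 (SD, n = 6), which is 1.52 times as high. As log2(signal + 5), a scale on which dim genes appear to change less than they do, the difference was 0.53 ± 0.24 (SE). It did not pass limma's test over all probe sets (adjusted p = 0.989, unadjusted p = 0.0527). limma called 0 of 15922 probe sets in this comparison (0%), against 593 at an unadjusted p under 0.05 (3.72%). An exact permutation test, two-sided over all 28 ways to choose 2 of the 8 arrays as controls, gave p = 0.143, and 0.0357 is the smallest it can give. The difference was larger in size than that of 98.4% of probe sets tested. In bulk tissue, fewer cells of a type and less RNA per cell cannot be told apart, for this and every value that follows.

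SAG29 had a different pattern over the lines: it was dim in 4 of them and near its Col-0 level in the other 2. Col-0-L had a signal of 17.2 and Col-0-S one of 32.1. It was 10.3 in KO-02, 10.0 in KO-07, 10.2 in KO-54 and 6.68 in KO-40, but 30.2 in KO-30 and 27.7 in KO-56. Thus 4 lines lay below both Col-0 arrays, 2 lay between them and none lay above. Of all probe sets tested, 23.5% had at least 4 lines below both Col-0 arrays.

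SAG29 averaged 24.6 ± 10.6 (SD, n = 2) on the Col-0 arrays, 1.56 times the mean of the lines, 15.8 ± 10.3 (SD, n = 6). The log2 difference was -0.60 ± 0.41 (SE) and did not pass (limma adjusted p = 0.989, unadjusted p = 0.180; exact permutation test, two-sided p = 0.357). This value rested on which Col-0 array was used, with -0.97 against Col-0-S alone and -0.22 against Col-0-L alone. SAG29 lay below the array median on all 8 arrays, and with a pseudocount of 21 in place of 5 its difference was -0.33.

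**Figure D1:**
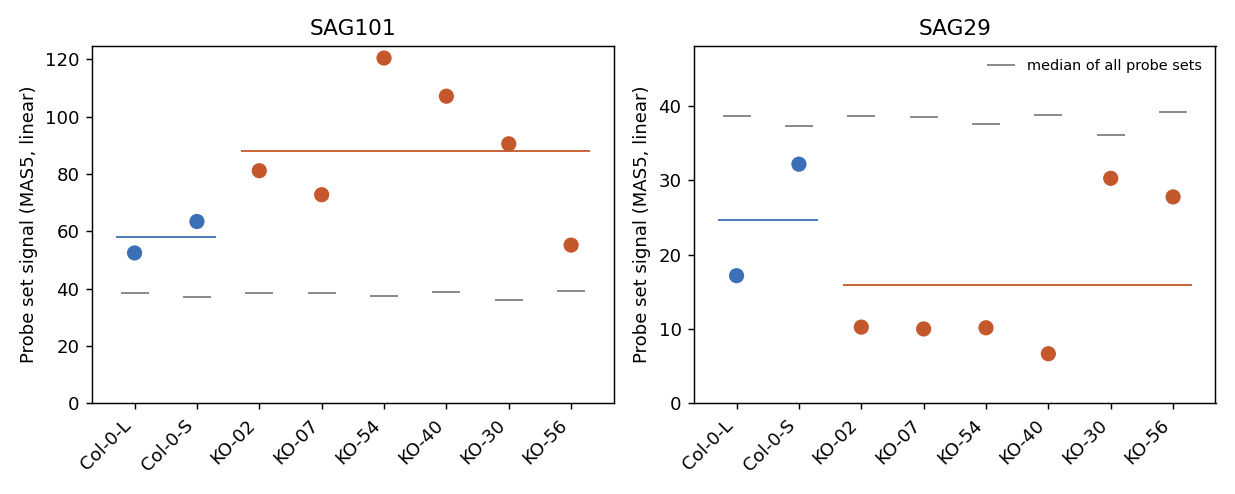
Signal of SAG101 (left) and SAG29 (right) on each of the 8 arrays, on linear axes from 0. Points are single arrays (blue Col-0, orange lines), coloured horizontal lines are group means, and grey dashes mark each array's median over all probe sets. SAG101 lies above the grey dashes on every array and highest in KO-54 at 120, whereas SAG29 lies below them on every array and lowest in KO-40 at 6.68.

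Next, single lines were compared with Col-0, and the spread was estimated from both Col-0 arrays together with the remaining 5 lines. This assumes that 1 array of a line varies as those arrays do. The same Col-0 arrays enter all 6 comparisons. KO-54 and KO-40 had the largest log2 differences for SAG101, 1.00 ± 0.32 (SE; limma unadjusted p = 0.0113, adjusted p = 0.362) and 0.84 ± 0.35 (unadjusted p = 0.0413, adjusted p = 0.728). KO-30 followed with 0.61 ± 0.38, KO-02 with 0.46 ± 0.38 and KO-07 with 0.31 ± 0.37, while KO-56 had -0.059 ± 0.27. The shares of probe sets above both Col-0 arrays were 36.0% in KO-54, 33.4% in KO-40, 31.7% in KO-30, 34.3% in KO-02 and 31.8% in KO-07. A single line above the Col-0 pair was therefore a common outcome on these arrays.

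For SAG29 the largest difference was that of KO-40, -1.30 ± 0.58 (SE; limma unadjusted p = 0.0502, adjusted p = 0.746). KO-07 had -0.93 ± 0.63, KO-54 -0.92 ± 0.64 and KO-02 -0.91 ± 0.64. Without Col-0-S these 3 were -0.56, -0.55 and -0.54, and with a pseudocount of 21 they were -0.54, -0.53 and -0.53, where KO-40 had -0.70. The shares of probe sets below both Col-0 arrays were 37.0%, 32.9%, 39.3% and 30.9% in these lines, in that order. KO-30 and KO-56 had positive differences, 0.30 ± 0.53 and 0.19 ± 0.54, each smaller than its SE. Neither gene passed in any of the 6 line comparisons, with adjusted p of at least 0.362 for SAG101 and at least 0.624 for SAG29. limma called 11 probe sets in KO-54 (0.0691%), 1 each in KO-30 and KO-56 (0.00628%) and 0 in the other 3 lines, where 364 in KO-02 (2.29%), 263 in KO-07 (1.65%) and 1064 in KO-40 (6.68%) had an unadjusted p under 0.05. The KO-54 count fell to 0 without Col-0-L, KO-02, KO-07 or KO-40 and to 1 without Col-0-S, and was 17 without KO-56. That of KO-56 was 3 without KO-54 and 0 without any other single array.

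**Figure D2:**
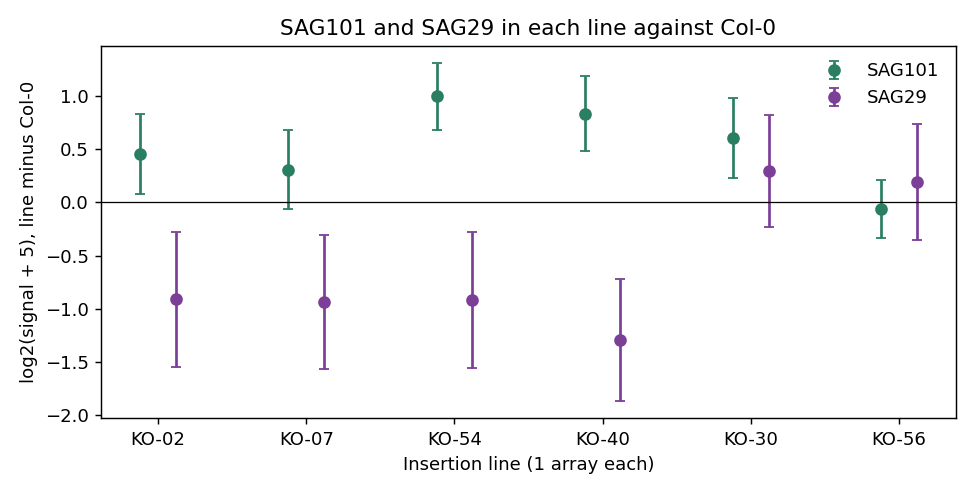
Log2(signal + 5) of each line minus Col-0 for SAG101 (green) and SAG29 (purple), with bars for 1 SE from limma. In KO-02, KO-07, KO-40 and KO-54 the SAG101 points are above 0 and the SAG29 points below it. In KO-30 both are above 0, and in KO-56 both lie within 1 SE of 0.

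Neither gene passed in a comparison of a line with the other 5 lines. In those contrasts KO-56 had a SAG101 log2 difference of -0.70 ± 0.25 (SE; limma unadjusted p = 0.0177, adjusted p = 0.430) and KO-54 one of 0.57 ± 0.28 (adjusted p = 0.638). For SAG29, KO-30 had 1.07 ± 0.47 (SE; limma unadjusted p = 0.0512, adjusted p = 0.354) and KO-56 had 0.94 ± 0.49 (adjusted p = 0.606). In this contrast limma called 20 probe sets in KO-54 (0.126%), 11 in KO-56 (0.0691%) and 1 in KO-30 (0.00628%). From the lowest to the highest line, the SAG101 signal spanned 2.18-fold and the SAG29 signal 4.53-fold, the latter from a near-floor signal of 6.68 in KO-40. On the log2(signal + 5) scale these ranges were 1.06 and 1.59, against a median of 0.49 over all probe sets tested, and exceeded the range of 92.6% and 98.4% of them.

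The controls put a limit on this order. Col-0-L was below Col-0-S by 0.25 for SAG101 and by 0.74 for SAG29 on the log2(signal + 5) scale, where the median gap of all probe sets tested was 0.16. The SAG29 gap exceeded that of 97.5% of probe sets. When the 8 arrays were ordered by level, every step between neighbours was smaller than the gap within the Col-0 pair, for both genes. Steps inside the pair are parts of its gap and had to be smaller, namely those around KO-56 for SAG101 and around KO-30 and KO-56 for SAG29. Outside the pair the largest steps were 0.23 for SAG101 and 0.54 for SAG29. The largest steps in SAG29 were 0.56 between KO-56 and Col-0-L and 0.54 between Col-0-L and KO-02. The order of neighbouring arrays is thus not resolved, and Col-0-L fell between the dim and the bright lines. Without Col-0-L in the order, KO-56 at 5.03 and KO-02 at 3.93 would be neighbours in SAG29, farther apart than the Col-0 pair. The Col-0-L minus Col-0-S difference, tested with the spread of the 6 lines, did not pass for either gene (limma adjusted p = 1.00 for both), and 0 probe sets were called (0%), with 520 at an unadjusted p under 0.05 (3.27%).

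The relation between the genes was then examined over the 8 arrays. In 4 of the 6 lines SAG101 lay above and SAG29 below both Col-0 arrays, while KO-30 was high in SAG101 and near Col-0-S in SAG29. Pearson's r was -0.55 (exact permutation test, two-sided p = 0.156, 0.259 adjusted over 5 relations) and Spearman's rho -0.48 (exact permutation p = 0.243, adjusted 0.446). Without KO-54 and Col-0-L, the arrays farthest from the median of SAG101, r was -0.59 (n = 6, exact permutation p = 0.219). Without KO-30 it was -0.75 (n = 7, exact permutation p = 0.0615), so that even then the relation was not past 0.05. A coefficient within the 6 lines had been planned but is not given, because SAG29 there fell into 4 dim and 2 bright lines. That choice was made after the values were seen, and r over the 8 arrays holds the same split. The Col-0 group, with 2 arrays, gives no value of its own.

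**Figure D3:**
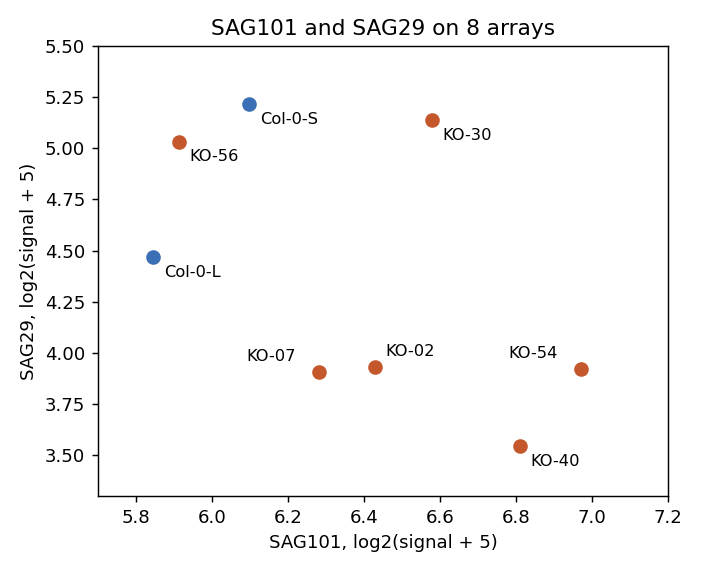
SAG29 against SAG101, both as log2(signal + 5), with 1 labelled point per array (blue Col-0, orange lines). KO-02, KO-07, KO-40 and KO-54 lie lowest, all to the right of KO-56 and the Col-0 arrays. KO-56, Col-0-S and KO-30 lie highest, with KO-30 the farthest right of these, and Col-0-L lies between in height.

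No relation of either gene with the RNA quality ratios passed a test. Over the 8 arrays the r of SAG101 with the log2 GAPDH ratio was 0.66 (exact permutation p = 0.0569, adjusted 0.259; rho 0.48, p = 0.243) and with the log2 actin ratio 0.58 (p = 0.123, adjusted 0.259; rho 0.45, p = 0.267). Without KO-54 and Col-0-L these were 0.17 and 0.00050. KO-54 had both the highest SAG101 signal and the highest ratios, so r without that array cannot decide on such a relation. KO-40 had the second highest SAG101 signal and the lowest actin ratio, 8.41. KO-30 had the third highest SAG101 signal and the second highest actin ratio, 15.4. Whether RNA quality affected SAG101 was not tested. With KO-30 and KO-54, whose actin ratios were highest, both left out, the SAG101 difference between lines and Col-0 was 0.39 ± 0.23 (limma unadjusted p = 0.132) and that of SAG29 -0.74 ± 0.40 (unadjusted p = 0.105). SAG29 had r = -0.081 with the actin ratio (exact permutation p = 0.891; rho 0.071, p = 0.882) and r = -0.14 with the GAPDH ratio (exact permutation p = 0.823; rho 0.12, p = 0.793).

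The other SWEET genes tested varied less between the lines than SAG29 did. Of the 16 on the list, 15 had a named probe set and 9 passed the filter on dim probe sets, of which 0 passed limma's test in either direction (adjusted p from 0.989 to 0.996, and 0 at an unadjusted p under 0.05). Their median log2 difference between lines and Col-0 was 0.036, against -0.011 over all probe sets tested, with 5 positive and 4 negative. The 3 largest differences were 0.50 ± 0.41 (SE) for AtVEX1, a pollen gene also called SWEET5, -0.14 ± 0.17 for SWEET2, a transporter of the vacuole membrane, and 0.089 ± 0.25 for SWEET13, a sucrose exporter. AtVEX1 had 15.6 in Col-0-L but 1.26 in Col-0-S, so its difference lay within the Col-0 pair's spread.

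SWEET11, which exports sucrose towards the phloem of leaves, was bright and differed little between the group means (log2 difference -0.045 ± 0.15 (SE)). It had signals of 509 and 554 on the Col-0 arrays and of 446 to 657 in the lines. Its log2 range over the lines, 0.55, was above the median of 0.49 over all probe sets tested. SWEET17, a fructose transporter of the vacuole membrane, ran from 280 to 323 in the lines against 300 and 335 in Col-0. The log2 ranges of the 9 genes over the lines lay between 0.20 and 1.196, all below the 1.59 of SAG29. Several still varied with it. Over the 8 arrays r with SAG29 was 0.73 for SWEET11, 0.70 for SWEET17 and SWEET16, and 0.69 for SWEET2. For SWEET4 and SWEET13 it was 0.55 and 0.40, and for SWEET1, SWEET3 and AtVEX1 0.015, -0.16 and -0.22. SWEET2 was lower in KO-02, KO-07, KO-40 and KO-54 (18.6 to 26.0) than elsewhere (26.6 to 34.0), a split found in 4.00% of probe sets tested. KO-56 had the highest SWEET11 and SWEET13 signals of all arrays, 657 and 162. The 6 SWEET genes under the filter, which were not tested, had signals from 1.63 to 14.6. Among them SWEET9, a sugar exporter known from nectaries, had 13.8 and 10.9 on the Col-0 arrays and 4.93 to 9.23 in the lines, so that all 6 lines were below both. The same held for 3.10% of probe sets tested, which are brighter ones and leave SWEET9 out.

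**Figure D4:**
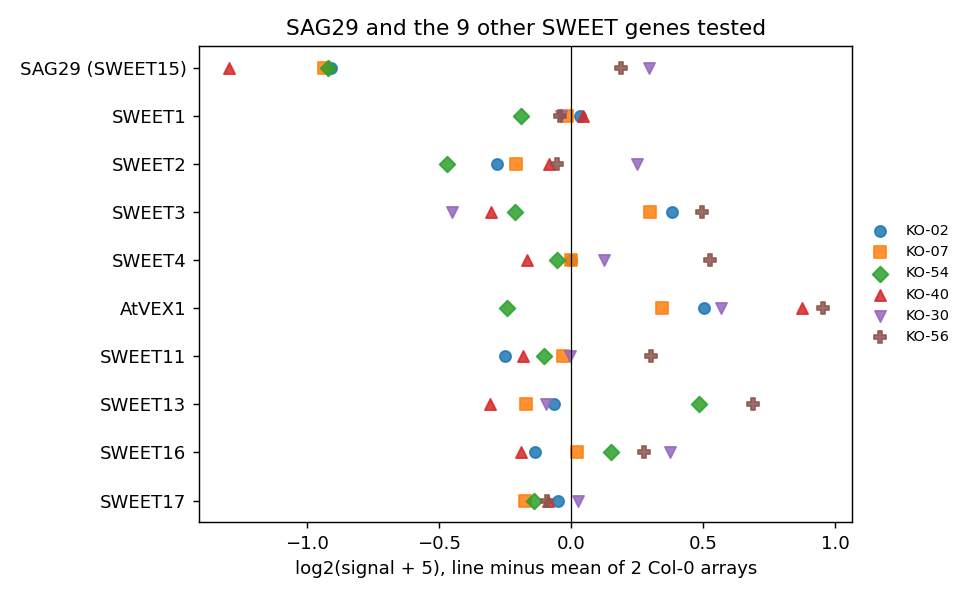
Log2(signal + 5) of each line minus the mean of the 2 Col-0 arrays for SAG29 (top row) and the 9 other SWEET genes tested, with 1 symbol per line. The SAG29 symbols of KO-02, KO-07, KO-40 and KO-54 lie between -0.91 and -1.30, to the left of every other symbol.

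Among genes that act with SAG101, 1 of the 20 on the list of EDS1 partners and salicylic acid immunity had a named probe set. This was AT3G48080, the close copy and neighbour of EDS1 known as EDS1B, whose probe set may also bind EDS1 transcripts. It had 53.4 and 58.3 on the Col-0 arrays, and in the lines 86.6 in KO-40, 77.9 in KO-07, 71.7 in KO-54, 66.7 in KO-30, 63.2 in KO-02 and 58.2 in KO-56. Like SAG101 it was above both Col-0 arrays in 5 lines, and 11.5% of probe sets tested had at least 5 lines above both. The exception was again KO-56, though its 58.24 was close to the 58.28 of Col-0-S. Its log2 difference was 0.31 ± 0.15 (SE) and did not pass (limma adjusted p = 0.989). PAD4, the other known partner of EDS1, had no named probe set, nor had EDS1 itself.

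Of 27 leaf senescence genes on the list, 4 had a named probe set and all 4 passed the filter. None passed the test (limma adjusted p = 0.989 for each), and their median log2 difference was 0.32, against -0.011 over all probe sets tested. The differences were 0.46 for WRKY53, 0.44 for WRKY6, 0.19 for PPDK and 0.089 for WRKY22, so this median of 4 genes does not describe the list. WRKY53, a promoter of leaf senescence, had 211 and 190 in Col-0, then 387 in KO-40, 326 in KO-07, 311 in KO-54, 263 in KO-30, 248 in KO-02 and 179 in KO-56. It was above both Col-0 arrays in the same 5 lines as SAG101, where 11.5% of probe sets tested had at least 5 lines above both. The r of WRKY53 over the 8 arrays was 0.80 with SAG101 and -0.80 with SAG29. WRKY6, another regulator tied to senescence and defence, had 30.05 and 31.2 in Col-0, 30.9 in KO-30 and 31.3 in KO-56, but 44.1 in KO-02, 43.6 in KO-54, 53.4 in KO-07 and 66.1 in KO-40. Its 4 highest arrays were therefore the 4 lowest of SAG29 (r = -0.89 with SAG29, n = 8).

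PPDK, an enzyme that helps to move nitrogen out of ageing leaves, also had its 4 highest signals in those lines, from 248 to 335. The margin was slight, since KO-56 had 247, and its log2 difference between lines and Col-0 was 0.19 ± 0.16 (SE). WRKY22 did not share the pattern, with its highest signal, 29.4, in KO-56 and r = 0.38 with SAG29. The split was not rare on these arrays. KO-02, KO-07, KO-40 and KO-54 all lay above the other 4 arrays for 4.96% of probe sets tested, and all below them for 4.00%. These coefficients share the 8 arrays and are given as a description. SAG12 and SAG13, other senescence-associated genes, and WRKY70 and SWEET12 had no named probe set.

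Of 16 genes of the abscisic acid and osmotic stress response, in which SAG29 is known to take part, 2 had a named probe set, and neither passed. COR15A had a log2 difference of -0.044 ± 0.18 (SE) and LTI30 one of 0.0095 ± 0.16. Both had their lowest signals in KO-40, 1417 and 653, as SAG29 did. Their r with SAG29 was 0.71 and 0.70 over 8 arrays. SWEET2, SWEET11, SWEET16 and SWEET17 had 0.69 to 0.73, so r of this size was not particular to the stress genes. The 2 leaf photosynthesis genes measured of 12, LHCB4.1 and RCA, had -0.19 ± 0.12 and -0.16 ± 0.13 and were also lowest in KO-40, at 3442 and 2710.

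The genes most like each member were sought among 5101 tested probe sets with 1 gene and a log2 range of at least 0.5 over the 8 arrays. With so many candidates and 8 arrays, extreme r can arise by selection alone, and those for both members are a description. For SAG101 the highest Pearson r over 8 arrays were those of AT5G52750 (0.98), AT5G23760 (0.97), AT5G12930 (0.95), AT1G59910 (0.95) and AT3G50550 (0.95). AT5G52750, for one, had 252 in Col-0-L, 264 in KO-56 and 337 in Col-0-S, and from 384 in KO-02 to 558 in KO-54. The most opposite were AT3G17230 (-0.98), AT5G19130 (-0.98) and AT2G18180 (-0.96). AT5G12930 and AT3G17230 were dim, with signals of 3.40 to 26.2 and of 5.99 to 14.4.

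For SAG29 the highest r were those of AT2G37870 (0.95), AT5G55220 (0.95), AT4G30620 (0.95), the glutathione transferase gene GSTU20 (0.94) and AT4G33550 (0.92). AT2G37870 had 37.9 to 60.1 in KO-02, KO-07, KO-40 and KO-54, 56.7 in Col-0-L and 128 to 148 in KO-30, KO-56 and Col-0-S. It thus placed Col-0-L with the dim lines. The most opposite were AT5G24740 (-0.97), OASA2 (-0.95) and YLS5 (-0.95). YLS5, named as a yellow-leaf-specific gene, had 254 and 232 in Col-0, 239 in KO-30 and 248 in KO-56, but 337 in KO-02, 328 in KO-07, 362 in KO-54 and 444 in KO-40. Its log2 difference between lines and Col-0 was 0.39 ± 0.21 (SE; limma adjusted p = 0.989). None of these 16 genes passed in that comparison, with adjusted p from 0.989 to 0.991.

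**Figure D5:**
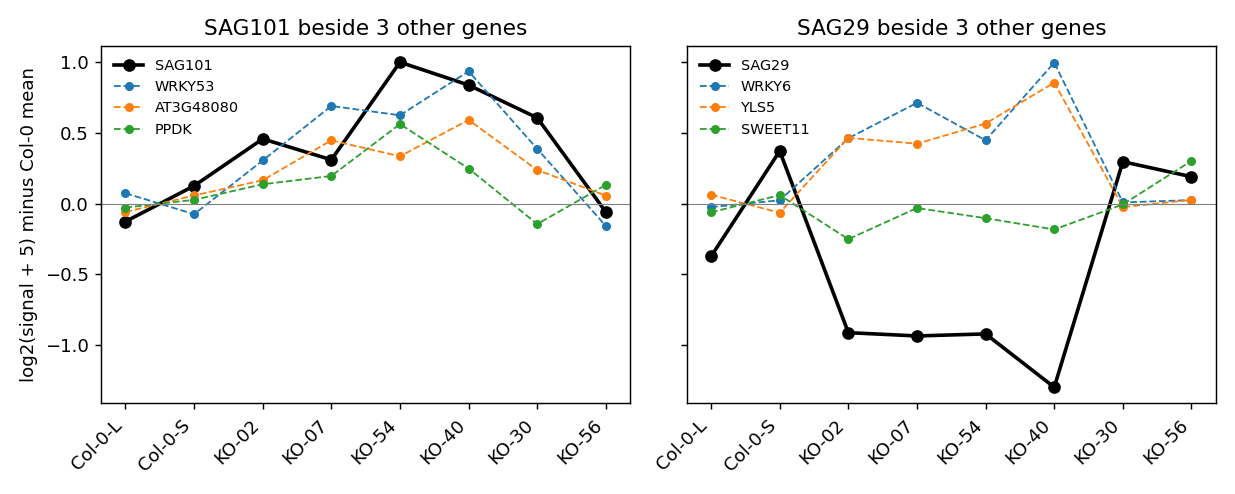
Log2(signal + 5) minus the mean of the Col-0 arrays on each of the 8 arrays, for SAG101 with WRKY53, AT3G48080 and PPDK (left) and for SAG29 with WRKY6, YLS5 and SWEET11 (right). The genes beside the members were chosen after their values were seen. WRKY6 and YLS5 lie above 0.4 in KO-02, KO-07, KO-40 and KO-54, where SAG29 lies below -0.9, and all 3 lie nearer to 0 in KO-30 and KO-56.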

How the data were processed

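RNA of 8 rosette samples was measured on ATH1 arrays. The authors deposited linear probe set intensity values. MAS5 produced them, per the submitters' processing notes (version not given in the sources used here). A mean trimmed by 2% at each end came to 100.01 on all arrays. No rescaling was therefore done, and 0 columns lacked a sample. After removal of 64 control probe sets from 22810, a pseudocount of 5 (the rounded 20th percentile) was added before log2, and probe sets with a mean above the 30th percentile were tested (15922 of 22746). Gene names came from the platform annotation, which pairs 13513 probe sets with 1 gene, updated through a TAIR10.1 gene table. From that table the chromosome and the order of neighbouring genes were used, and no coordinates.

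Differences were tested in R 4.3.3 with limma 3.58.1 (lmFit, eBayes, two-sided, Benjamini-Hochberg over all probe sets tested, threshold 0.05), with 6 residual degrees of freedom for the lines against Col-0 and 5 for single lines. The code was tested on simulated data. The number of arrays limits the precision. The members and lists were chosen with earlier results of these data known. Of 99 list genes in 6 lists, 24 had a named probe set. Genes named were the members, up to 3 genes per list by size of difference, 8 genes fixed by name, and for each member the 5 most alike and 3 most opposite genes. Others (SWEET9, SWEET17 and WRKY22, and the per-array detail of YLS5) were chosen after their values were seen. Alternatives were other pseudocounts, filters, normalizations and variance models, single Col-0 arrays and leaving out arrays.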

Additional observations from a re-analysis of the deposited data

Results flagged for a closer look

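Dixon's test at the 95% level was applied to 22 values over the 6 lines, and chance marks about 1 in 20. SWEET1 was low in KO-54 (signals of 108 against 120 to 128 in the other lines), with a gap of 0.6254 of the range, barely past the limit. RCA was low in KO-40 (2710 against 3117 to 3347 in the other lines), with a gap of 0.663 of the range. Neither SAG101 (0.349, for KO-56) nor SAG29 (0.227, for KO-40) was marked.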

How the results depend on the processing

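Under 17 alternatives the SAG101 difference between lines and Col-0 stayed positive, from 0.39 to 0.65 (log2), and under 16 that of SAG29 stayed negative, from -0.97 to -0.22. Neither passed in any of them. Leaving out 1 array at a time gave 0.40 to 0.65 for SAG101 and -0.97 to -0.22 for SAG29. Without KO-56 the SAG101 difference was 0.64 (limma unadjusted p = 0.00685, adjusted p = 0.826). SAG29 fell under the filter at the median, so that setting gave no value for it. The number of probe sets called between lines and Col-0 was 1 with trended and robust variances and 0 otherwise. In single lines the count ran from 0 to 29 for KO-54 (20 with a pseudocount of 1, 29 with array weights, 0 without the filter), from 0 to 6 for KO-56, from 0 to 4 for KO-40 and from 1 to 2 for KO-30. When 1 array was left out, KO-56 had 0 to 3. The correlation of the genes stayed negative, from -0.75 to -0.42 when 1 array was left out, and was -0.79 without KO-54 and KO-30 (n = 6, exact permutation p = 0.0681). Single-line differences changed sign in 3 cases, all with 1 Col-0 array as control: SAG29 in KO-30 was -0.076 and in KO-56 -0.18 against Col-0-S alone, and SAG101 in KO-56 was 0.067 against Col-0-L alone. SAG101 in KO-07 was 0.18 against Col-0-S alone. Counts against the other 5 lines were computed under 1 setting. No paired analysis was possible because each line had 1 array. The replicate number is the same in every title and so matches no line to a Col-0 array. The dimness of SAG29 limits how far its log2 values can be read.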

Other observations

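AT5G14940, the gene that follows SAG101 on its chromosome in the TAIR10.1 gene order, was nearly level. The Col-0 arrays had 118 and 97.5 and the lines 93.5 to 115, a log2 difference of -0.056 ± 0.12 (SE; limma adjusted p = 0.993).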
